A study of Mus musculus with 2 samples.

Results

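The genes of 3 enzyme families of phase II metabolism were examined for binding of Hnf4a: the UDP-glucuronosyltransferases (Ugt), the sulfotransferases (Sult) and the cytosolic and mitochondrial glutathione S-transferases (Gst). They were taken by symbol from RefSeq's annotation of mouse assembly GRCm38.p6, as protein-coding genes named Ugt, Sult or Gst of class a, k, m, o, p, t or z followed by a number. The rule found 65 of the 21887 protein-coding genes on chromosomes 1 to 19, X and Y, with 22 Ugt, 21 Sult and 22 Gst genes. The cells were iHepCs from wild-type C57BL/6J mouse embryos: fibroblasts turned into hepatocyte-like cells by retroviral Foxa2 and Hnf4a and grown with insulin, dexamethasone, nicotinamide, hepatocyte growth factor and epidermal growth factor. The labels still give the cell type as fibroblast. Since Hnf4a was itself introduced into the cells, its level and its sites need not be those of a hepatocyte. Binding was read by ChIL-seq, in which an antibody-bound DNA probe directs a transposase to chromatin near the protein, in 2 replicates of this 1 group, with no control group to compare. Each deposited list gives 1-bp peak summits with the authors' −log10 q (the score below), 21283 in replicate 1 and 24097 in replicate 2, and no expression value by which to check the cell type.

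Phase II enzymes couple a polar group to drugs, hormones, bile pigments and reactive products of oxidation so that they can be excreted. Ugt enzymes of the endoplasmic reticulum transfer glucuronic acid from UDP-glucuronic acid, Sult enzymes of the cytosol transfer sulfate from the donor PAPS, and Gst enzymes join glutathione to electrophiles. The liver expresses many members of each family, most lie in tandem arrays of close paralogues, and Hnf4a, with nuclear receptors such as Nr1i2 and Nr1i3 and the stress factor Nfe2l2, is known to act on a number of them.

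Summits of both replicates within 100 bp were merged and called shared. Shared summits fell inside the promoter window of 2 members, Sult1b1 and Gstm4, and a summit of replicate 1 alone inside that of Gstm7. These 3 windows are shown because they are the ones that held a summit among the members with listed promoters. Gsta4, with single-replicate summits just outside both of its ends, and 7 other members had no promoter listed and were not examined here. Each runs 5′ to 3′ on the strand of the gene, is 300 bases long and comes from RefSeq (GRCm38.p6). The Sult1b1 window is chr5:87536173-87536472 on the minus strand, with the shared summit at base 196, 55 bp before the start site. The Gstm4 window is chr3:108044810-108045109 on the minus strand, with the shared summit at base 71, 180 bp before the start site. The Gstm7 window is chr3:107931768-107932067 on the minus strand, with the replicate 1 summit at base 111, 140 bp before the start site. Capitals mark matches to 8 searched motifs. They are TGAGTCA, the reverse complement of the AP-1 motif TGACTCA, and GGCCAAAGTCCA, in which the HNF4 motif CAAAGTCCA and the looser GGNCAAAG overlap. Windows without capitals held none of the 8.
Sult1b1: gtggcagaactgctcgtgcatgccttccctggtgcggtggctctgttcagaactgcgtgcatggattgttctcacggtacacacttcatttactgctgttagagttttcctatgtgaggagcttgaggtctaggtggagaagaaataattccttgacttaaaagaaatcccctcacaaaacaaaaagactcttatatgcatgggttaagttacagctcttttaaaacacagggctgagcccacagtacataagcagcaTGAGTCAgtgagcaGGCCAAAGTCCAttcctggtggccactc
Gstm4: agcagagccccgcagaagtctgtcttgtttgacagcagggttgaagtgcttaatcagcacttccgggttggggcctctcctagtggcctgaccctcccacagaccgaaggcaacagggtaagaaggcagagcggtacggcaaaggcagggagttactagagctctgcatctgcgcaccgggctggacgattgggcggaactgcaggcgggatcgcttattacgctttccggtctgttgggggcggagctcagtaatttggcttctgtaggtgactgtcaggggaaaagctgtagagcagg
Gstm7: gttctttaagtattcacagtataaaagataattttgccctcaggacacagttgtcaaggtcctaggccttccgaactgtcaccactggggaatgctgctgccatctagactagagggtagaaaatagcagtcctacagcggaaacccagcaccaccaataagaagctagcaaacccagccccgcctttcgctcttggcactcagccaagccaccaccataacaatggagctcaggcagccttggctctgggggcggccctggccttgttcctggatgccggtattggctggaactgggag

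A shared Hnf4a summit stood within 10 kb of a gene end at 8 of 65 members (12.3%, 95% exact binomial interval 5.47 to 22.8), against 20.6% of all protein-coding genes. The 8 were the Gst genes Gsta1, Gsta2, Gsta4, Gstm1 and Gstm4 (5 of 22, 22.7%) and the Sult genes Sult1a1, Sult1b1 and Sult2b1 (3 of 21, 14.3%), while no Ugt gene of 22 had one. The interval of all members includes the share of all genes, and the exact intervals of the families overlap (7.82 to 45.4 for Gst, 3.05 to 36.3 for Sult and 0 to 15.4 for Ugt). Those of Gst and Sult include the 20.6% of all genes, and that of Ugt lies below it. These intervals treat genes as independent, which neighbours that share a summit are not, and cover counting error only. Without the 3 genes of the Gsta locus on chromosome 9, 2 of 19 Gst genes had a shared summit within 10 kb (10.5%).

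In the separate lists, 23 members (35.4%) had a replicate 1 summit at this distance, against 39.4% of all genes, and 16 (24.6%) a replicate 2 summit, against 41.9%. Gst genes had a replicate 1 summit in 17 of 22 cases (77.3%) and a replicate 2 summit in 11 (50.0%). For Sult genes the counts were 4 of 21 (19.0%) in replicate 1 and 5 of 21 (23.8%) in replicate 2. For Ugt genes they were 2 of 22 (9.09%) in replicate 1 and 0 of 22 in replicate 2. No test of these differences was made, because members of an array share summits.

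**Figure D1:**
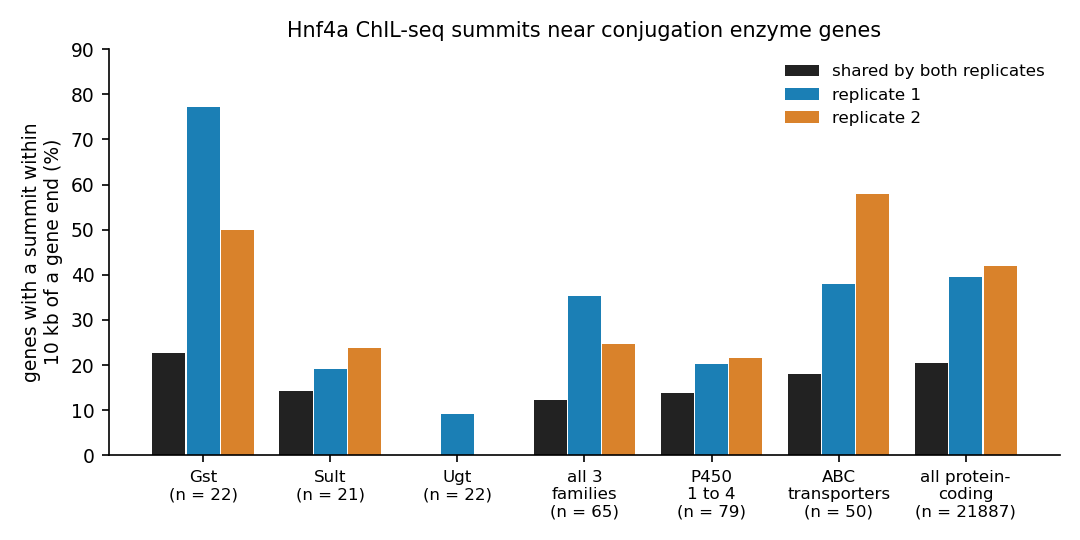
Share of genes (percent, y axis) with a summit within 10 kb of a gene end, for each family, all 3 families, cytochrome P450 families 1 to 4, ABC transporters and all protein-coding genes. Black bars are summits shared by both replicates, blue bars replicate 1 and orange bars replicate 2, with no error bars; Gst reached 77.3% in replicate 1 and 50.0% in replicate 2, and Ugt 9.09% and 0%, while all protein-coding genes had 39.4% and 41.9%.

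The rest of the members can be placed by what was found within 10 kb of their ends. At 6 Gst genes (Gstt1, Gstt3, Gstp3, Gsto1, Gsto2 and Gstm7) both replicates had a summit, but at different places. At 9 genes replicate 1 alone had one (Gstm5, Gstm6, Gstp1, Gstp2, Gstt2, Gstt4, Sult1e1, Ugt1a6b and Ugt1a7c), and at 2 genes replicate 2 alone (Sult6b1 and Sult6b2). The other 40 had none: 20 Ugt, 15 Sult and 5 Gst genes (Gsta3, Gstk1, Gstm2, Gstm3 and Gstz1). Over all genes, 48.3% had none, against 61.5% of members. Of all 21887 protein-coding genes, 1988 had summits of both replicates within 10 kb but no shared one. A further 2144 had a replicate 1 summit alone and 2697 a replicate 2 summit alone.

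Inside the gene itself, a shared summit was found at 5 of 65 members (7.69%), against 13.7% of all genes. A replicate 1 summit lay inside 13 members (20.0%), against 26.3% of all genes, and a replicate 2 summit inside 10 (15.4%), against 28.4%. Members and all genes had similar median lengths, 17579 and 17169 bp, although Gst genes were shorter (median 7465 bp) than Sult (28456 bp) and Ugt genes (29006 bp). Within 50 kb, 29 members had a shared summit (44.6%), against 46.8% of all genes. These were 13 of 22 Gst, 5 of 21 Sult and 11 of 22 Ugt genes, and 9 of the 11 Ugt genes were the overlapping Ugt1a genes, which all counted the same summit. Replicate 1 had a summit within 50 kb of 37 members (56.9%), against 69.3% of all genes, and replicate 2 of 40 (61.5%), against 72.4%.

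The Gsta locus on chromosome 9 held the most shared summits of any member locus. Its 3 members encode alpha-class enzymes, among them Gsta4, which clears the lipid peroxidation product 4-hydroxynonenal. The span from Gsta4 to Gsta2 was widened by 10 kb on each side to 175.2 kb. It held 8 summits of replicate 1, 7 of replicate 2 and 5 shared ones. That is 28.5 shared summits per Mb, against 3.58 per Mb over the genome. The genome value also covers sequence far from genes, so this is not a like comparison. The span also overlaps the protein-coding genes Gm3776, Gm10639, Omt2a and Omt2b. Of the 5 shared summits, the one at 78271259 (5.55 and 8.85) lay 2093 bp from Gm3776 and 28576 bp from Gsta1, the nearest member. Per Mb, the shorter Sult1a1 locus was denser, with 53.2 (2 in 37.6 kb).

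The nearest shared summit of Gsta4 lay 7914 bp from the gene, at position 78217263, and scored 14.6 in replicate 1 and 8.83 in replicate 2. At the gene's own ends the replicates parted: replicate 1 had a summit 72 bp outside the lower-coordinate end (5.25) and replicate 2 a summit 39 bp outside the other end (5.09). Gsta1 was flanked by shared summits on both sides. The first stood 4023 bp upstream of its start site, at 78226646, and scored 8.35 in replicate 1 and 11.2 in replicate 2. The second lay 1987 bp beyond the end of the gene, at 78244670, with 9.35 and 10.7. Gsta2 held a shared summit inside the gene, at 78343926 and 3219 bp downstream of a start site. The replicates placed their summits 1 bp apart there (7.06 and 10.4).

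The highest-scored shared summit within 50 kb of any member lay just beyond this span, at 78176547, 15419 bp outside Gsta4. It scored 24.4 in replicate 1 and 22.5 in replicate 2, which placed it at percentile 93.2 and 92.2 of all shared summits. The gene nearest to it was Cilk1, at 4433 bp.

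The Gstm locus on chromosome 3 holds 7 mu-class genes in 149.3 kb, with shared summits at Gstm1 and Gstm4 only. At Gstm4 the shared summit lay at 108045039, upstream of the start site as shown in the promoter above, and scored 9.26 in replicate 1 and 11.0 in replicate 2. At Gstm1, a main mu-class enzyme of mouse liver, it lay inside the gene at 108013483, 4335 bp downstream of the start site and 1233 bp from the transcript end, and scored 7.90 and 5.87. The other mu-class genes had no shared summit within 10 kb. Gstm7 had the replicate 1 summit in its promoter (6.57), which was also the one within 10 kb of Gstm6, and a replicate 2 summit 5746 bp away (2.87). Gstm5 had a replicate 1 summit 1826 bp away (6.52). Gstm2 and Gstm3, between Gstm6 and Gstm1, had none within 10 kb.

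The remaining Gst genes had no shared summit within 10 kb, but at the theta and pi loci the replicates placed summits close to each other. Gstt3, a theta-class gene, held a replicate 1 summit 281 bp (7.35) and a replicate 2 summit 152 bp (15.7) downstream of a start site, 129 bp apart, and a further replicate 2 summit 6413 bp beyond its end (7.89). The first pair was also within 10 kb of Gstt1. A replicate 1 summit between Gstt4 and Gstt2 (6.29) lay 5426 and 3850 bp from them. Beside Gstp3, a pi-class gene, summits of replicate 1 (10.7) and replicate 2 (6.84) stood 145 bp apart and 3619 and 3764 bp from the gene. Gstp1 and Gstp2, also of the pi class, had only a replicate 1 summit (9.63), 9112 and 4803 bp away. Gsto1, an omega-class gene, had a replicate 1 summit 435 bp upstream (4.40) and a replicate 2 summit inside it (7.89). Its neighbour Gsto2 had a replicate 1 summit 132 bp downstream of a start site (6.45) and a replicate 2 summit 450 bp beyond the gene (9.33). The nearest shared summit of the omega-class genes was 20283 bp upstream of Gsto1, inside Cfap43, and scored 19.7 and 17.0. For Gstk1, an enzyme of mitochondria and peroxisomes, the nearest shared summit was 45403 bp away (12.8 and 18.6). For Gstz1, which acts in tyrosine breakdown, it was 94.2 kb away (3.43 and 6.43), and for Gsta3, at a locus of its own on chromosome 1, 108.1 kb (8.10 and 15.0). The theta locus had its nearest 225.4 kb from Gstt3 (7.996 and 7.14), and the pi locus 35024 bp from Gstp1 (16.0 and 5.32).

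**Figure D2:**
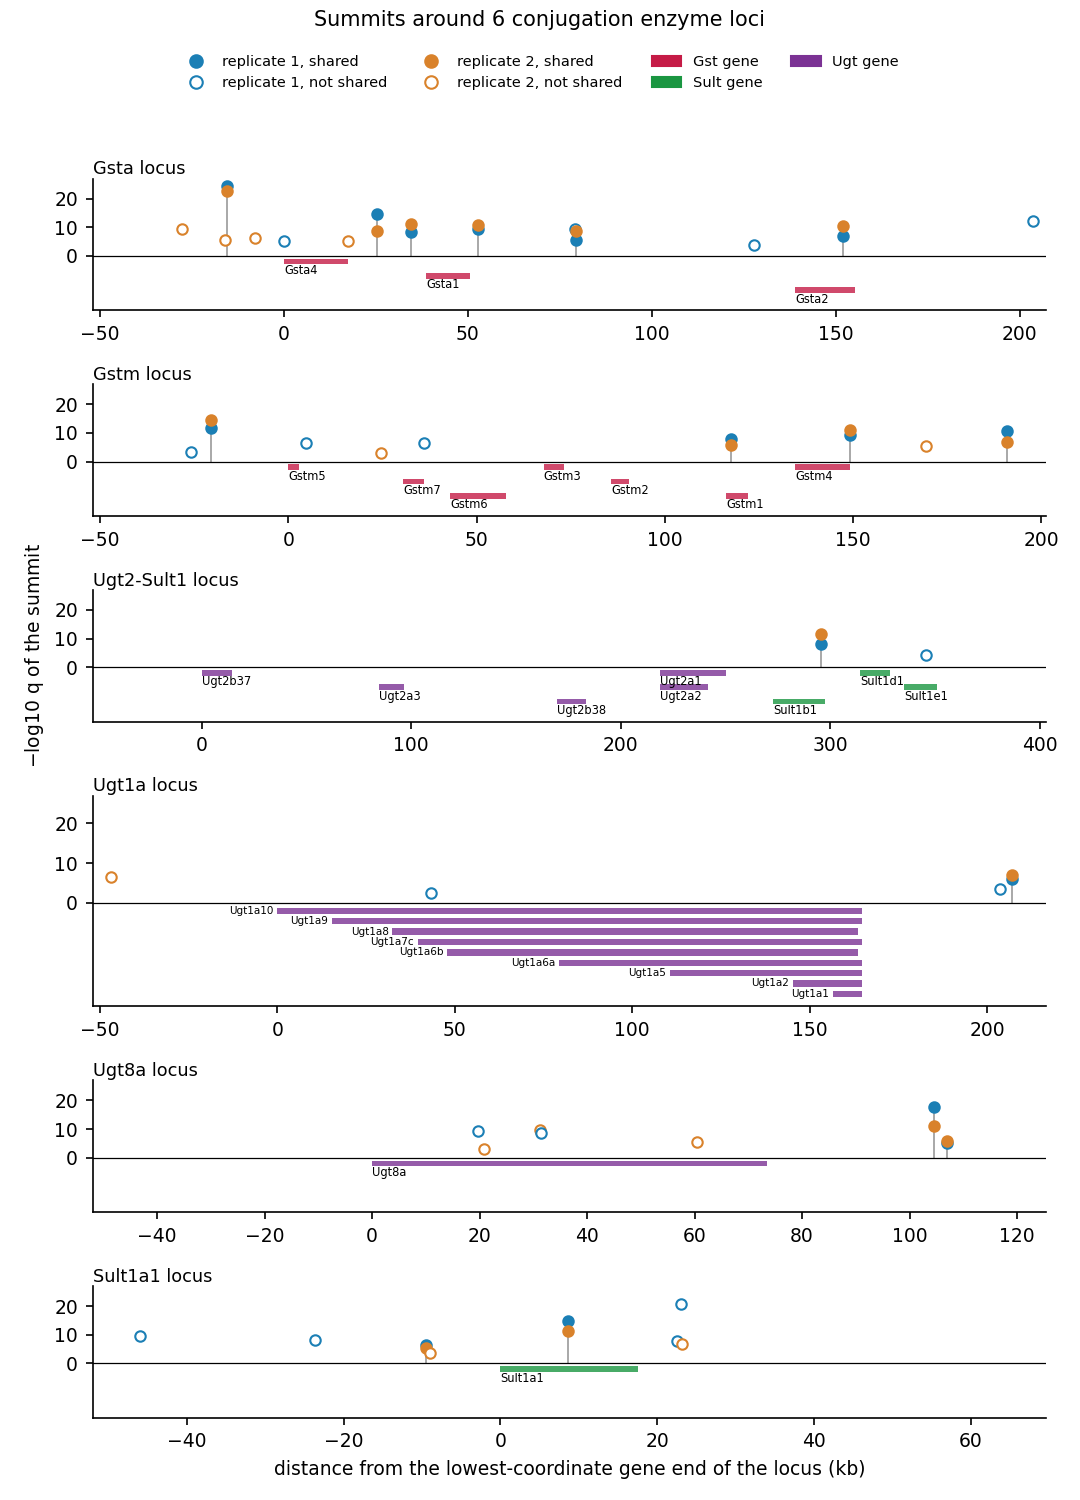
Summit scores (−log10 q, y axis) against distance (kb, x axis) from the lowest-coordinate gene end at 6 loci, with genes drawn as bars below 0 (Gst red, Sult green, Ugt purple). Blue circles are replicate 1 and orange circles replicate 2, filled and joined to the axis where shared; the Gsta locus holds several shared summits beside or in its genes, while no shared summit falls in the Ugt1a or Ugt8a genes.

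Of the sulfotransferase genes, Sult1b1 had its shared summit closest to a start site. Sult1b1 is expressed in liver and gut and sulfates thyroid hormones and small phenols. The replicates placed the summit at 87536264 and 87536290 on chromosome 5, with scores of 8.15 in replicate 1 and 11.6 in replicate 2. It lies 1918 bp inside the outer gene end and 55 bp upstream of the second of the listed start sites. The HNF4 motif begins 25 bp downstream of that start site. Sult1d1 and Sult1e1, its neighbours, had no shared summit within 10 kb. Sult1e1, the estrogen sulfotransferase, held a replicate 1 summit inside the gene (4.20).

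Sult1a1, the main phenol sulfotransferase of liver, had a shared summit inside the gene at 126681414 on chromosome 7, 4996 bp upstream of the listed start site, with 14.8 in replicate 1 and 11.5 in replicate 2. A second shared summit lay 9474 bp outside Sult1a1, inside its neighbour Sgf29, and scored 6.51 and 5.40. On the other side of Sult1a1 the best score of any summit within 10 kb of a member, 20.8 in replicate 1, stood 125 bp from a replicate 2 summit of 6.73 and so was not shared. The replicate 1 summit lay 5400 bp from Sult1a1 and 60 bp from Slx1b, and the replicate 2 summit 32 bp from Bola2. Sult2b1, the cholesterol sulfotransferase of skin, had a shared summit 2341 bp away at 45727640 (11.6 and 10.1). This summit lies inside the neighbouring gene Fam83e, and a replicate 2 summit lay inside Sult2b1 itself (7.45).

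The other Sult genes had no shared summit within 10 kb. Sult6b1 held a replicate 2 summit inside it (7.45) and had another 9531 bp away (6.18), and Sult6b2 had a replicate 2 summit 9860 bp away (5.66). The 8 Sult2a genes, which sulfate hydroxysteroids and bile acids and are the largest group of the family, had no summit of either replicate inside them or within 50 kb. Sult3a1, Sult3a2, Sult1c2 and the brain-type Sult4a1 had none either. For Sult5a1 the nearest shared summit was 54.0 kb away (14.0 and 8.76), and for Sult4a1 86.4 kb (7.65 and 6.29). It was 90.3 kb away for Sult6b1 (17.7 and 12.7), 237.3 kb for Sult6b2 (17.1 and 12.9) and 114.6 kb for Sult3a2 (9.31 and 10.5). Sult1c2 and Sult1c1 had the same nearest summit, 251.3 and 383.2 kb away (10.1 and 6.73). So did both Sult2a loci, 293.2 kb from Sult2a5 and 1080 kb from Sult2a8 (22.2 and 12.3). All of these distances exceed 50 kb.

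No Ugt gene had a shared summit inside it or within 10 kb of an end. The 9 Ugt1a genes of chromosome 1 start at different first exons and share their 3′ end, and include Ugt1a1, which conjugates bilirubin. The 164.6 kb they span held a single summit, of replicate 1, at 88098646. Its score of 2.44 lay near the lowest of that list (2.04). It falls inside Ugt1a7c, Ugt1a8, Ugt1a9 and Ugt1a10 and 4611 bp from Ugt1a6b. The nearest shared summit of the locus was 42378 bp beyond the common 3′ end, inside Hjurp, and scored 6.01 in replicate 1 and 7.01 in replicate 2.

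The 10 Ugt2 genes of chromosome 5, whose products conjugate steroids and drugs, had no summit of either replicate inside them. The nearest shared summit of Ugt2a1 was the one in Sult1b1, 45406 bp away, and that of the array from Ugt2b34 to Ugt2b5 was 153.7 kb away (19.9 and 14.7). Ugt3a1 and Ugt3a2, whose human counterparts use other sugars as donors, had no summit within 50 kb, and the nearest shared one was 144.9 kb away (6.86 and 6.85). Ugt8a, which makes the galactolipid of myelin, was the Ugt gene with the most summits. It held 2 of replicate 1 (9.32 and 8.54) and 3 of replicate 2 (2.91, 9.80 and 5.55), all over 10 kb from its ends. The pair of 8.54 and 9.80 stood 133 bp apart. Its nearest shared summit was 31048 bp outside the gene, upstream of the start site (17.7 and 11.0).

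The pairs near the limit of 100 bp show what it decides. Just inside it, the replicates' summits were 81 bp apart beyond the Ugt1a genes, 56 bp apart at 41630 bp from Gstm4 and 54 bp apart at the Gstm4 start site. Just outside it were the pairs beside Sult1a1 (125 bp), Gstt3 (129 bp), in Ugt8a (133 bp) and beside Gstp3 (145 bp). With a limit of 200 bp, 11 of 65 members had a shared summit within 10 kb (16.9%), against 24.0% of all genes, and 8 of 22 Gst genes did (36.4%). The Ugt count stayed at 0.

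Joining members within 100 kb of each other gave 24 loci, 12 of them with 1 gene. A shared summit lay within 10 kb of a member in 5 loci (20.8%): Gsta, Gstm, Sult1a1, Sult2b1 and the array on chromosome 5 from Ugt2b37 to Sult1e1. Joining all protein-coding genes in the same way gave 2988 loci, of which 37.2% had one, with a median of 2 genes a locus against 1.5 for the members. The largest of these loci held 261 genes, against 9 for the members. Larger loci have more gene ends, so the 2 shares are not a like comparison. Counted by family, 2 of 8 Gst loci, 3 of 12 Sult loci and 0 of 5 Ugt loci had one. Over all member loci widened by 10 kb, the density of shared summits was 3.81 per Mb (11 in 2.89 Mb), against 3.58 per Mb over the genome. The interval of the member value, 1.90 to 6.82, includes the genome value. The genome densities here cover whole chromosomes, with sequence far from genes, while member loci are genes with their flanks. They are therefore not a like comparison, and the density around other genes was not measured. Of the 11 summits, 5 lay in the Gsta locus. By family, the density was 11.1 per Mb for Gst (7 in 0.630 Mb), 3.02 per Mb for Sult (4 in 1.32 Mb) and 0 for Ugt (0 in 0.930 Mb). Replicate 1 alone gave 28.6, 5.29 and 3.23 summits per Mb for Gst, Sult and Ugt, against 8.30 over the genome. Replicate 2 alone gave 25.4, 8.31 and 3.23, against 9.40. The Gst density of shared summits rests on the Gsta locus, which holds 5 of the 7. Without it, the other 7 Gst loci had 4.39 shared summits per Mb (2 in 0.455 Mb), with 21.97 summits of replicate 1 and 19.8 of replicate 2 per Mb, and 6 of the 8 Gst loci had no shared summit. The differences in density were not tested.

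Distances to the nearest shared summit depended on arrays whose genes share it. Measured from the gene, with 0 for a summit inside it, the median was 42.1 kb for Gst, 237.3 kb for Sult and 49.7 kb for Ugt, against 55.3 kb for all protein-coding genes. Of the 22 Ugt genes, 9 were Ugt1a genes measured to the same summit. Of the 21 Sult genes, 8 were Sult2a genes measured to a common summit, and without them the Sult median was 86.4 kb over 13 genes. The farthest Gst gene was 283.1 kb away, the farthest Ugt gene 388.9 kb and the farthest Sult gene 1134 kb.

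**Figure D3:**
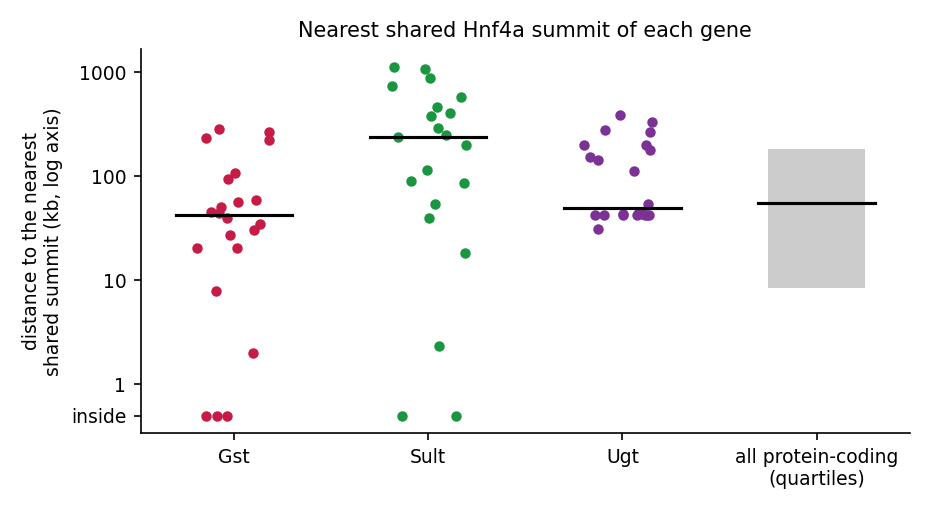
Distance from each gene to its nearest shared summit (kb, log axis), with genes that hold one drawn at "inside". Points are single genes and black lines medians (42.1 kb for Gst, 237.3 kb for Sult, 49.7 kb for Ugt); the grey bar spans the quartiles of all protein-coding genes, 8.44 to 183.4 kb, around their median of 55.3 kb.

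Long stretches without a summit of either replicate held many of the Sult and Ugt genes. Sult2a7 and Sult2a8 lay in a stretch of 1355 kb, the other 6 Sult2a genes in the adjoining stretch of 948.7 kb, and all 10 Ugt2 genes in 1 of 800.2 kb. Of the 45189 stretches between neighbouring summits, whose median length was 16.1 kb, 87, 236 and 331 were at least as long as these. Sult4a1 lay in a stretch of 590.1 kb. Genes wholly inside stretches of over 500 kb made up 19 of 65 members (29.2%), against 12.5% of all protein-coding genes: 9 of 21 Sult, 10 of 22 Ugt and 0 of 22 Gst genes. No summit of either list stood inside or within 50 kb of 25 members (38.5%), against 20.6% of all genes. These arrays consist of close paralogues, and how far reads could be placed uniquely in them was not tested.

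**Figure D4:**
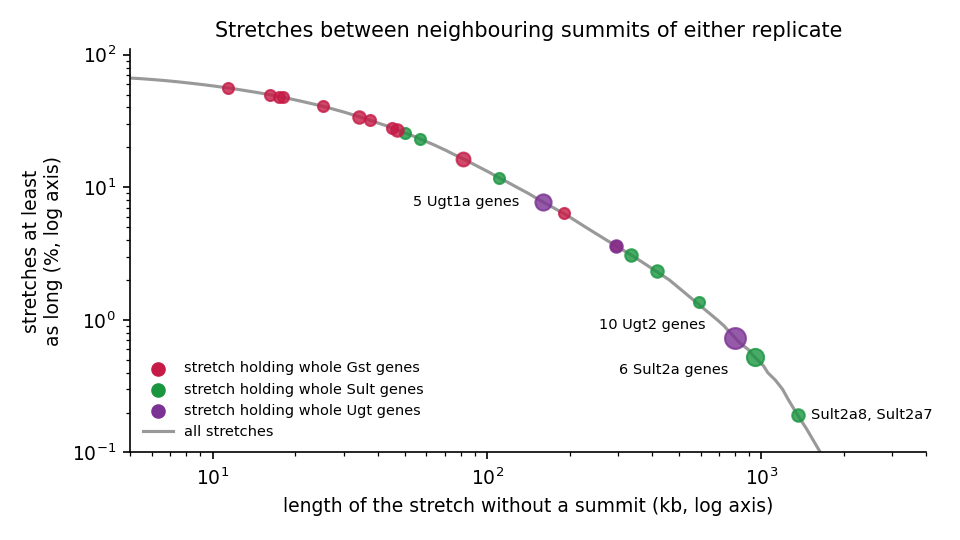
Length of stretches between neighbouring summits of either replicate (kb, log axis) against the percentage of stretches at least as long (log axis). The grey line is all 45189 stretches and each point is a stretch that holds whole member genes, larger for more genes; the stretches with the Sult2a genes (1355 and 948.7 kb) and the Ugt2 genes (800.2 kb) lie at the far end, and no stretch with a Gst gene is as long. Long stretches hold more genes by their length alone.

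The shared summits near members scored within the range of shared summits elsewhere. Within 10 kb of a member end there were 38 separate sites, of which 10 were shared (26.3%), 13 were in replicate 1 only and 15 in replicate 2 only, against 25.4% shared of all 36186 sites. The 10 shared sites scored 6.51 to 14.8 in replicate 1, with a median of 8.81, and 5.40 to 11.6 in replicate 2, with a median of 10.5. All shared summits had medians of 9.93 and 9.61. For 8 of the 10 the nearest protein-coding gene was a member, and the other two lay in Fam83e and Sgf29.

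**Figure D5:**
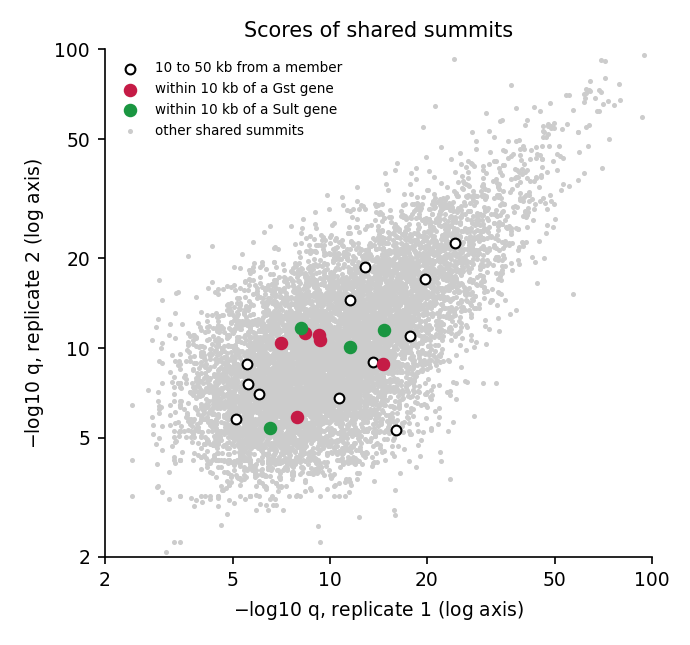
Scores (−log10 q) of shared summits in replicate 1 (x axis) and replicate 2 (y axis), both on log axes that stop at 100 and leave out 15 summits above it. Coloured points lie within 10 kb of a Gst (red) or Sult (green) gene, open circles 10 to 50 kb from a member, and grey points are all other shared summits; the coloured points span 6.51 to 14.8 in replicate 1 and 5.40 to 11.6 in replicate 2, within the grey cloud.

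Start sites and strands were listed for 57 of the 65 members. A shared summit lay within 1 kb of a start site in 2 of 57 (3.51%, Gstm4 and Sult1b1), against 8.83% of the 17492 protein-coding genes with listed start sites, and within 5 kb in 6 of 57 (10.5%), against 12.6%. Of the 8 motifs, searched on both strands, the HNF4 motif CAAAGTCCA was in the promoter of 1 member of 57 (1.75%), Sult1b1, against 0.520% of all promoter sets. The looser GGNCAAAG was in 4 (7.02%), Sult1b1, Gstk1, Gstz1 and Gsto1, against 6.45%. The direct repeat of AGGTCA with a single A between its copies was in none, against 0.0286% of all. The AP-1 motif TGACTCA was in 8 (14.0%), against 5.40%: Gstm5, Gstp1, Gstp2, Sult1b1, Sult1c1, Sult2b1, Ugt2a2 and Ugt2b37. The FOXA motif TGTTTAC was in 5 (8.77%), against 3.45%: Sult1d1, Ugt1a2, Ugt2b35, Ugt2b37 and Ugt2b38. The core of the antioxidant response element, TGACNNNGC, was in 3 (5.26%), against 14.8%: Gsta3, Gstm5 and Gstm7, the last in the window of another start site than the one shown. The core of the xenobiotic response element, TTGCGTG, was in 1, Sult1d1 (1.75%), against 1.54%. In the 1016 genes with a shared summit in a promoter window, CAAAGTCCA was found in 0.394% and GGNCAAAG in 7.48%.

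Other gene groups of drug handling were set beside the members. A shared summit lay within 10 kb of 8 of 65 members (12.3%), 11 of 79 genes of cytochrome P450 families 1 to 4 (13.9%) and 9 of 50 ABC transporter genes (18.0%), against 20.6% of all protein-coding genes. Inside the gene the shares were 7.69% for members, 6.33% for P450 genes and 28.0% for ABC genes, whose median length was 64841 bp, against 13.7% of all genes. Gst genes in replicate 1 (77.3%) were above P450 genes (20.3%) and ABC genes (38.0%), whereas in replicate 2 they (50.0%) were above P450 genes (21.5%) and below ABC genes (58.0%). These differences were not tested.

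Genes that supply the donors of the conjugation reactions, or carry out related steps, were listed beside the transferases. Of 24 such genes, 11 had a shared summit within 10 kb (45.8%), against 20.6% of all genes and 12.3% of the transferase genes; the difference between the lists was not tested. For glucuronidation, Ugdh, which makes UDP-glucuronic acid, had one 2259 bp away (16.4 in replicate 1 and 25.1 in replicate 2). For sulfation, Papss1 and Papss2, which make PAPS, had one 89 bp outside the gene (5.34 and 7.69) and one inside it (9.09 and 8.03), and Slc35b2, which carries PAPS into the Golgi, had one 8403 bp away (14.4 and 12.2). For glutathione, Gclm, the modifier subunit of glutamate-cysteine ligase, had one 196 bp away (16.2 and 8.38). Gss, glutathione synthetase, had 2, the nearer 626 bp inside an end (13.0 and 13.5), and Gsr, glutathione reductase, had one inside it (6.28 and 15.6). Gclc, the catalytic subunit of the ligase, had its nearest at 12518 bp (9.93 and 8.62).

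Among other conjugation enzymes, Tpmt, which methylates thiopurines, had a shared summit 8 bp inside an end (18.6 in replicate 1 and 22.7 in replicate 2), and Glyat, which joins glycine to acyl groups, 22 bp inside (19.3 and 20.0). The epoxide hydrolase gene Ephx2 (19.4 and 22.8) and the microsomal transferase gene Mgst3 (12.6 and 10.2) held one too. Those without one within 10 kb included Nqo1, Ephx1, Nnmt, Nat1 and Nat2.

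Of 16 regulators of xenobiotic and stress responses, 8 had a shared summit within 10 kb (50.0%), against 20.6% of all genes. Nfe2l2, which binds antioxidant response elements, had one 50 bp inside an end (6.74 in replicate 1 and 16.9 in replicate 2), and Keap1, its inhibitor, one 8881 bp away (6.82 and 5.17). Its partner Mafg had one at 7837 bp (11.0 and 9.57) and the competing repressor Bach1 one at 139 bp (20.0 and 6.37). Nr1i2, Nr1i3 and Nr1h4 had one too. Ahr and Arnt, which bind xenobiotic response elements as a pair, had their nearest at 84495 bp (6.41 and 4.01) and 20393 bp (4.98 and 13.0). Both lists were chosen with earlier results of these data known, so their shares are a description.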

How the data were processed

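Hnf4a ChIL-seq summits of iHepCs were analysed in 2 replicates of 1 group, grouped by the sample titles. Per the submitters' processing notes, the build was mm10, and the tools named are MACS2 2.2.9.1, HISAT2 2.0.5 and fastp 0.23.4. The sources used here do not give a control library or the handling of duplicates. Each of the deposited lists holds a −log10 q-value for each 1-bp summit, as MACS2 writes its summit lists. The authors called each library alone at a q of 0.01, per the deposited peak names; their lowest scores were 2.04 and 2.01. The labels do not say whether the replicates came from separate cultures. The lists hold no counts, so depth is unknown, and scores were not rescaled.

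Summits within 100 bp were merged, and a region with both replicates was called shared and placed at its midpoint. Gene ends came from RefSeq (GRCm38.p6, the assembly behind mm10), and start sites and promoters from RefSeq's promoter table, in which 57 of 65 members matched. "Within 10 kb of a gene end" counts both sides of either end. All comparisons are counts beside all protein-coding genes, without tests. Every member with a shared summit, or a summit of 1 replicate, within 10 kb was named, with the nearest shared summit of the loci that had none within 10 kb and every pathway gene with a shared summit within 10 kb. Members, lists, motifs and alternatives were chosen with earlier results of these data known. 1 pathway entry, Sts, was not matched, and some pathway genes and 1 motif are not reported here. Alternatives covered the sharing distance, score, window, locus distance and biotype. Scripts were tested on simulated data. Python 3.11.15, numpy 2.4.6, pandas 2.3.3, scipy 1.17.1 and matplotlib 3.10.9 were used.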

Additional observations from a re-analysis of the deposited data

How the results depend on the processing

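Of 58 alternative values over all loci, 49 stayed within the 95% interval of the value in the text and 9 did not. These intervals cover counting error and are wide for such small counts, so they do not measure the spread due to processing. The Gst share within 10 kb, for example, went from 22.7% to 36.4% with a limit of 200 bp and stayed within its interval. Both replicates were kept in 7 alternatives. In all of them, the share of members with a shared summit within 10 kb (9.23% to 16.9%) was below that of all genes. The Ugt share was 0% in the 6 of these given per family, but only the limit of 200 bp could have raised it. The shorter window, the limit of 50 bp and the score limit only narrow the count. The nearest shared summit of any Ugt gene was 31.05 kb away, beyond the 20 kb window, and none lay inside. Requiring summits within 50 bp left 30.8% of members with a shared summit within 50 kb, against 37.4% of all genes; with a limit of 200 bp (52.3% against 51.8%) or only scores of 5 or more (44.6% against 42.9%) members were level with or above all genes there. With 1 replicate left out, the list that remains counts all its summits, so values rise by construction. The ranges were 24.6% to 35.4% of members within 10 kb, 15.4% to 20.0% inside the gene, 56.9% to 61.5% within 50 kb, 50.0% to 77.3% of Gst, 19.0% to 23.8% of Sult and 0% to 9.09% of Ugt genes within 10 kb, 37.5% to 41.7% of loci, and 9.70 to 10.4 summits per Mb. With replicate 1 alone, 37.5% of member loci compared with 51.3% of the loci of all protein-coding genes. With replicate 2 alone, 41.7% compared with 54.7%. No paired analysis was possible because there is 1 group. Read depth is unknown, so a gene without a summit may have had too few reads; this was not tested. Leaving out the Gsta locus and the Sult2a genes was chosen after seeing the data. It moved the Gst density to 4.39 per Mb and the Sult median distance to 86.4 kb.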

Other observations

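The pseudogenes of these families, Gstm2-ps1 and Sult2a-ps2, had no shared summit within 10 kb either, and counting them gave 8 of 67 (11.9%) against 15.2% of genes of every biotype. The 9 members with a replicate 1 summit alone within 10 kb outnumbered the 2 with a replicate 2 summit alone, while over all protein-coding genes replicate 2 had more of them (2144 in replicate 1 alone and 2697 in replicate 2 alone). Of the 9, Gstt2 and Gstt4 shared 1 summit, Gstp1 and Gstp2 another, and Ugt1a6b and Ugt1a7c another.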
